A study of Canis lupus familiaris with 17 samples.

Results

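The cells described here were CD4 T cells of dog blood that carried at least 2 UMIs (unique molecular identifiers, each standing for 1 counted RNA molecule) of IL18R1, the ligand-binding chain of the interleukin-18 receptor. They had been put forward as Th1-like CD4 T cells. The members were chosen by measured values alone, the UMI counts of 9 genes: a cell barcode needed at least 1 UMI of CD3E and of CD4, at least 2 of IL18R1, and none of CD8A, MS4A1, S100A12, GATA3, CCR6 or FOXP3. Of 84361 barcodes kept for analysis, 655 met the rule, out of 13558 gated CD4 T cells (CD3E and CD4 present, with CD8A, MS4A1 and S100A12 absent). The values of these 9 genes therefore describe the choice and were not tested between the gates, and GATA3, CCR6 and FOXP3 were tested only in cells chosen without them.

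Single-cell RNA was profiled from peripheral blood mononuclear cells of 7 healthy dogs and of 10 dogs with osteosarcoma (OS), a malignant bone tumor that arises spontaneously in dogs. All were recorded as wild type, the cells were primary immune cells taken from blood without culture, and each dog gave 1 library. The healthy dogs were middle-aged, of several breeds and of both sexes, and the dogs with OS were middle-aged to old, so age and disease cannot be fully told apart. The dog was the replicate in every comparison. Matrices held between 7740230 and 56510134 UMIs per dog, and between 1239 and 7072 barcodes per dog were kept. No pair of libraries shared more than 16 barcodes, and none shared more than 0.332% of the smaller library.

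Th1 cells are the helper T cells that arm macrophages and cytotoxic cells against intracellular microbes and tumors, mainly through interferon gamma. Interleukin-12, acting through a receptor whose signalling chain is IL12RB2 and through STAT4, and the transcription factor T-bet, made from TBX21, set up the program. Interleukin-18 then acts on cells that have gained its receptor, built from IL18R1 and the accessory chain IL18RAP, and adds to interferon gamma release. Effector and memory T cells in general, innate-like T cells and other helper subsets can also carry the receptor.

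**Figure D1:**
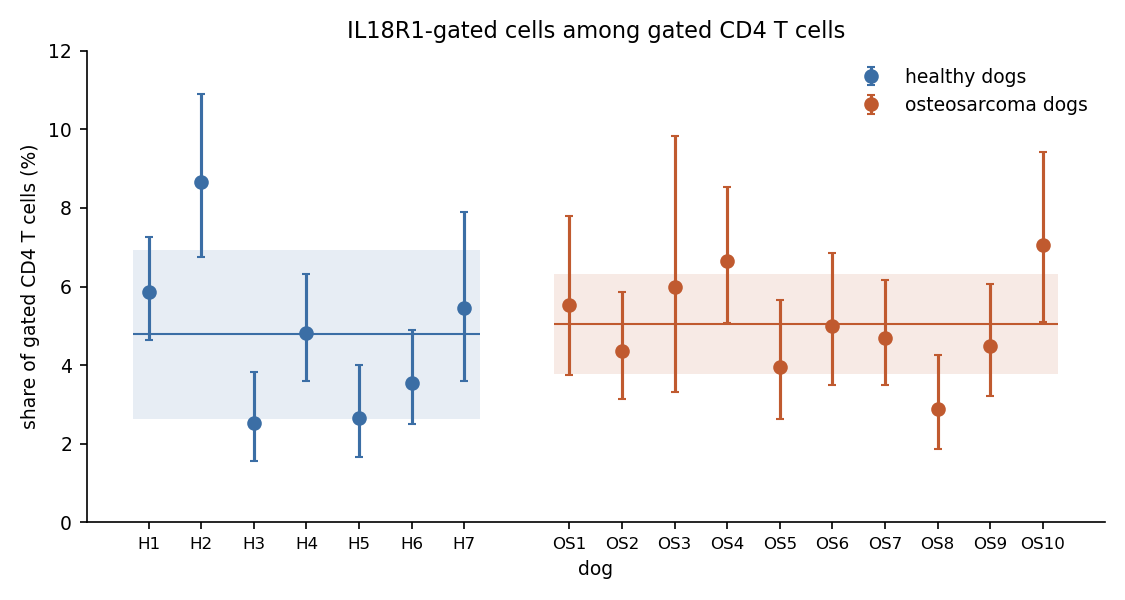
Share of IL18R1-gated cells among gated CD4 T cells in each dog (y axis, percent) for 7 healthy dogs (blue) and 10 dogs with OS (orange). Points are dogs, bars are exact binomial 95% intervals of the counts, lines are group means and bands are 1 SD; the shares run from 2.52 to 8.66% in healthy dogs and from 2.88 to 7.05% in dogs with OS.

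The name rested on IL18R1 more than on T-bet. TBX21 was found in 25 of the 655 cells (3.82%, exact binomial 95% interval 2.49 to 5.58%), against 1.43% of CD4 T cells without IL18R1 and 0.586% of gated B cells. Among cells with at least 3000 UMIs, thinned to 3000, the shares were 1.55% of 645 IL18R1-gated cells, 0.667% without IL18R1 and 0.464% of B cells. IFNG, the interferon gamma gene, was found in 3 of the 655 cells (0.458%), and CXCR3, a chemokine receptor of Th1 cells, in 16 (2.44%). These genes had few UMIs at this depth, and a missing UMI does not show that a cell lacked the RNA. The cells are therefore called IL18R1-gated CD4 T cells below. Their T cell identity genes (8 tested outside the rule) had a median log2 difference of -0.01 from CD4 T cells without IL18R1, with 0 called. Summed B cell markers lay between 0 and 179.5 counts per 1e6 UMIs (CPM) over the 17 dogs (median 12.3), against 2149 to 4376 in gated B cells, and CD79B was at 0. Summed monocyte and neutrophil markers lay between 27.6 and 4946 CPM (median 68.5), against 13010 to 34230 in gated myeloid cells. CD4 T cells without IL18R1 had higher medians of both sums. They lay between 40.9 and 1588 CPM (median 367) for monocyte and neutrophil markers and between 25.4 and 106.7 (median 39.9) for B cell markers. A single cell held 491 of the 969 LYZ UMIs of all 655 cells. CD79A and S100A8 were left out of these sums because they were high in every T cell gate (medians of 8227 and 1407 CPM in the IL18R1-gated cells, against 6241 and 44.1 in gated B cells).

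Between 14 and 77 IL18R1-gated cells came from each dog. In the 7 healthy dogs the counts were 77, 66, 21, 49, 22, 36 and 26, and in the 10 dogs with OS they were 30, 41, 14, 57, 28, 35, 49, 24, 39 and 41. Healthy dogs had 4.79% ± 2.15 (SD, n = 7; range 2.52 to 8.66, median 4.82) of their gated CD4 T cells in this class, and the OS group had 5.05% ± 1.27 (SD, n = 10; range 2.88 to 7.05, median 4.84). The groups overlapped over nearly their whole range, and the median shift was 0.462 percentage points (95% interval -1.51 to 2.17, two-sided rank-sum test of Wilcoxon, exact p = 0.601, with 0.000103 as the smallest p the design allows). The lowest share, 2.52% in healthy dog 3 (21 of 832 cells, exact binomial 95% interval 1.57 to 3.83), and the highest, 8.66% in healthy dog 2 (66 of 762, interval 6.76 to 10.9), both came from healthy dogs. Of the 10 dogs with OS, 5 lay above the healthy median. As a share of all kept barcodes the healthy group had 0.876% ± 0.570 (SD, n = 7) and the OS group 0.782% ± 0.278 (SD, n = 10), with a shift of 0.0460 percentage points (95% interval -0.604 to 0.293, exact Wilcoxon p = 0.813). The binomial intervals cover counting error only. With cells thinned to 3000 UMIs the mean shares of gated CD4 T cells were 2.58% and 2.86% (exact Wilcoxon p = 0.475), after 7216 healthy and 8864 OS cells with fewer UMIs were left out.

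Most of the cells lay close to the threshold of the rule. Of the 655, 348 (53.1%) had exactly 2 IL18R1 UMIs, 145 had 3 and 162 had 4 or more, up to 13, while 980 cells with 1 IL18R1 UMI met every other part of the rule and lay just outside it. Pooled over dogs, IL12RB2 stood at 122.8 CPM in the cells with 2 IL18R1 UMIs and at 62.4 in those with 1, and CCR7 at 133.1 and 168.5. The IL18R1-gated cells were also deeper than the CD4 T cells with no IL18R1: their median UMIs per cell lay between 5450 and 9010 over the dogs (median 6646), against 4340 to 7007 (median 5534), and they were the deeper gate in 17 of 17 dogs, by a median factor of 1.24. A count of at least 2 UMIs is reached more often in a deep cell, so the comparisons with the other CD4 T cell gates were also made with cells matched on total UMIs, while those without the exclusions and those between OS and healthy dogs were not.

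The GATA3, CCR6 and FOXP3 exclusions removed 810 of the 1465 cells that otherwise met the rule (55.3%), 702 of them for GATA3, 198 for CCR6 and 15 for FOXP3, with some cells counted under more than 1 gene. GATA3 is the transcription factor of Th2 cells, CCR6 a chemokine receptor of Th17 cells and FOXP3 the transcription factor of regulatory T cells. With the 3 exclusions left out, cells with 2 or more IL18R1 UMIs could be compared for these genes with the cells with none in all 17 dogs. The levels are TMM-normalised CPM, in which library totals are rescaled to level out most genes. GATA3 stood at 103.1 ± 21.9 with IL18R1 and 107.0 ± 23.0 without (SD, n = 17; log2 difference -0.06 ± 0.07 SE, edgeR adjusted p = 0.645) and was higher in 7 of 17 dogs. Its direction turned with the scaling: in plain CPM it stood at 106.1 ± 21.8 with IL18R1 and 102.7 ± 20.2 without and was higher in 9 of 17. CCR6 stood at 22.02 ± 10.2 CPM with IL18R1 and 12.6 ± 5.44 without (log2 difference 0.84 ± 0.13, edgeR adjusted p = 1.32e-06) and was higher in 15 of 17 dogs. FOXP3 stood at 1.38 ± 1.47 and 1.62 ± 0.707 CPM (log2 difference -0.30 ± 0.43, edgeR adjusted p = 0.743). TBX21 did not pass the test in these cells either, at 4.68 ± 4.09 against 3.82 ± 4.63 CPM (log2 difference 0.60 ± 0.30, edgeR adjusted p = 0.206). IL12RB2 did, at 135.2 ± 57.9 against 26.0 ± 14.4 CPM (log2 difference 2.43 ± 0.11), and was higher with IL18R1 in 17 of 17 dogs. Of these genes CCR6 and IL12RB2 passed, and GATA3, FOXP3 and TBX21 did not.

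**Figure D2:**
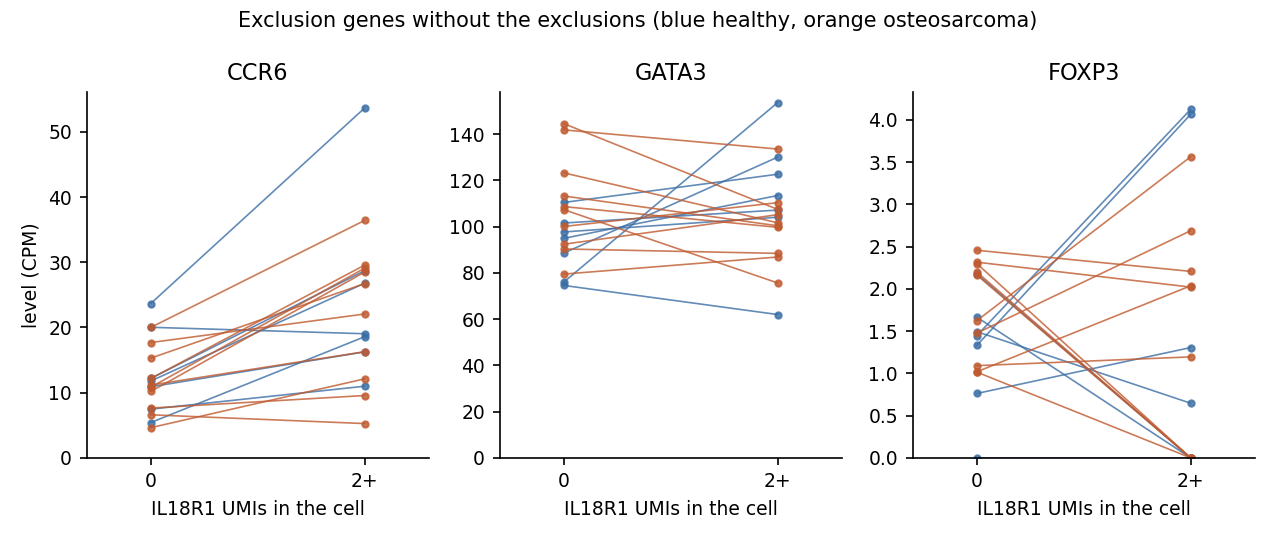
Plain CPM of CCR6, GATA3 and FOXP3 (y axis) in gated CD4 T cells with 0 or with 2 or more IL18R1 UMIs (x axis), with the 3 exclusions not used. Each line is 1 dog (blue healthy, orange OS), and CCR6 is higher on the right in 15 of 17 dogs and GATA3 in 9 of 17.

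The IL18R1-gated cells were next set against the 6068 CD4 T cells that met the same rule with 0 IL18R1 UMIs, summed per dog in the 13 dogs (5 healthy, 8 with OS) with at least 25 cells in both gates. A gene was called at an edgeR adjusted p below 0.01 with an absolute log2 fold change above 0.58. Of 12451 genes tested, 203 were higher in the IL18R1-gated cells (1.63% of the genes) and 203 lower (1.63%), and the median over all genes was -0.08. DESeq2 called 219 higher and 128 lower. Matching cells on total UMIs left 164 higher and 175 lower. The setting without the GATA3, CCR6 and FOXP3 exclusions held 17 dogs. IL18R1 itself went from 0 UMIs to a median of 405.9 CPM by the rule. A sum over cells cannot tell more cells that carry an RNA from more RNA per cell, in this or the later comparisons. Levels below are TMM-normalised CPM, fitted within each comparison.

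The receptors that open Th1 cells to interleukin-12 and interleukin-18 were among the genes that rose most. IL12RB2 ran from 28.5 to 342 CPM over the 13 dogs (median 129) with IL18R1 and from 6.09 to 69.3 (median 19.7) without. It was higher with IL18R1 in 13 of 13 dogs, although the ranges of the gates overlapped (log2 difference 2.56 ± 0.14 SE, edgeR adjusted p = 6.63e-25). IL18RAP, which sits next to IL18R1 in the RefSeq gene order of the dog assembly UU_Cfam_GSD_1.0, ran from 28.5 to 79.2 CPM (median 39.5) against 4.67 to 30.8 (median 11.4), higher in 13 of 13 dogs (1.85 ± 0.17). IFNGR1, the ligand-binding chain of the interferon gamma receptor, rose by 0.70 ± 0.14 in 12 of 13 dogs, a call that was lost when the GATA3, CCR6 and FOXP3 exclusions were not used. IFNGR1 was not called against the gates on GATA3 (0.20 ± 0.14, edgeR adjusted p = 0.593) and on CCR6 (0.59 ± 0.22, edgeR adjusted p = 0.186) set out below. Of the 17 tested genes of the interleukin-12, interleukin-18 and interferon list these 3 were called, all higher, with a median of 0.18. IL12RB1, the chain of the interleukin-12 receptor that the interleukin-23 receptor also uses, had 30 UMIs in these cells and a log2 difference of 0.71 ± 0.39 (edgeR adjusted p = 0.286). STAT4, the signal carrier below the interleukin-12 receptor, was higher in 13 of 13 dogs but stayed below the fold threshold (429 to 917 CPM, median 643, against 313 to 715, median 469; log2 difference 0.43 ± 0.06, edgeR adjusted p = 6.63e-09).

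Of 10 tested transcription factors listed for Th1 cells, 3 were called, all higher, with a median of 0.57. Against the gates on GATA3 and on CCR6, set out below, 1 of 10 was called in each, BHLHE40 and RUNX2, with medians of 0.25 and 0.18. RUNX2 ran from 133 to 365 CPM (median 183) with IL18R1 and from 53.8 to 186 (median 82.1) without, higher in 13 of 13 dogs (log2 difference 1.29 ± 0.09, edgeR adjusted p = 3.06e-18). BHLHE40, a factor that holds back interleukin-10 in Th1 cells, rose by 1.11 ± 0.13 in 12 of 13 dogs, and PRDM1, which encodes the effector factor Blimp-1, by 0.84 ± 0.13 in 13 of 13. PRDM1 lost its call without the 3 exclusions. TBX21 was not among them. It ran from 0 to 14.9 CPM (median 5.14, 3 dogs at 0) with IL18R1 and from 0 to 27.9 (median 1.36) without, and was higher in 9 dogs and lower in 3 (log2 difference 0.92 ± 0.46, edgeR adjusted p = 0.232), on 24 UMIs against 76. RUNX3 (0.20 ± 0.19, edgeR adjusted p = 0.638) did not pass and was higher in 7 dogs and lower in 6. EOMES, on 9 UMIs against 26, did not pass either (0.71 ± 0.64, edgeR adjusted p = 0.598) and was higher in 4 dogs and lower in 7. ZBTB16, which encodes PLZF, a factor known from innate-like T cells, ran from 12.2 to 116 CPM (median 65.7) against 4.19 to 52.3 (median 12.7) and was higher in 13 of 13 dogs (2.26 ± 0.17, edgeR adjusted p = 9.14e-18).

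Chemokine receptors split. CCR9, the receptor through which lymphocytes home to the small intestine, had a log2 difference of 3.45 ± 0.23 (edgeR adjusted p = 2.97e-20). It ran from 0 to 97.7 CPM (median 34.0) with IL18R1 and from 0.406 to 9.29 (median 2.75) without. That was the largest rise of the genes with a symbol and at least 20 CPM on average over both gates. CCR9 met this limit only through the IL18R1-gated cells (means of 40.9 and 3.76 CPM), so its rank was partly set by the limit. The rise was not shared by all dogs: CCR9 was higher in 11 of 13 and at 0 in the IL18R1-gated cells of the other 2. CXCR3 had 13 UMIs and a difference of 0.91 ± 0.54 (edgeR adjusted p = 0.337). CCR7, which takes naive and central memory cells into lymph nodes, ran from 20.4 to 203 CPM (median 152) against 180 to 384 (median 274) and was lower in 13 of 13 dogs (-1.13 ± 0.10). Of 19 tested genes for chemokine receptors and homing, 3 were higher and 4 lower. Among the lower ones was ITGA1, a collagen-binding integrin chain, at -1.20 ± 0.08.

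Of 14 tested genes of naive and resting T cells, 9 were lower, 0 were higher and 5 were not called, with a median of -1.01. This fall belonged to the comparison with cells without IL18R1. Against the gates on GATA3 and on CCR6, set out below, the medians of the list were -0.07 and 0.21. LEF1, a factor that keeps T cells naive, ran from 232 to 1734 CPM (median 841) with IL18R1 and from 763 to 3037 (median 1578) without, lower in 13 of 13 dogs (log2 difference -0.98 ± 0.06, edgeR adjusted p = 8.72e-21). Its relative TCF7 was lower in 13 of 13 dogs but did not reach the fold threshold (-0.43 ± 0.08, edgeR adjusted p = 7.98e-06). The list mixes textbook genes with ones that the study picked on these samples, RGS10, CSTA, COL6A5 and ZNF536 among them, so its direction is not independent evidence. RGS10, a brake on G protein signalling, ran from 24.4 to 174 CPM (median 65.1) against 134 to 446 (median 270) and CSTA, a cysteine protease inhibitor, from 15.0 to 234 (median 56.9) against 184 to 474 (median 275). Both were lower in 13 of 13 dogs, by log2 differences of -2.03 ± 0.10 and -1.999 ± 0.109. COL6A5 (-1.97 ± 0.16) and ZNF536 (-1.94 ± 0.18) were also lower in 13 of 13. Of genes outside the list, BCL11A (-2.32 ± 0.23) was lower in 13 of 13 dogs, KANK1 (-2.26 ± 0.27) in 12 and TMEM132D (-2.06 ± 0.25) in 10. LYZ, the lysozyme gene of myeloid cells, was lower in 11 of 13 dogs (-1.94 ± 0.27), and this call was lost when cells with 3 or more UMIs of other lineages' markers were removed, a check added after seeing the data. That check held 11 dogs and also lacked healthy dog 7 and dog 5 with OS, the latter the highest for LYZ without IL18R1. IL7R, the receptor chain for the survival cytokine interleukin-7, was not lower: it ran from 1193 to 2547 CPM (median 1465) against 813 to 1983 (median 1117), higher in 13 of 13 dogs though below the fold threshold (0.45 ± 0.05, edgeR adjusted p = 4.40e-12).

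Other receptors for cytokines moved in both directions. IL21R, the receptor for interleukin-21, ran from 4.07 to 49.5 CPM (median 25.7) with IL18R1 and from 55.7 to 97.0 (median 65.3) without, with no overlap between the gates (log2 difference -1.35 ± 0.15, edgeR adjusted p = 2.08e-11). TGFBR2, a receptor for TGF-beta, was lower by -0.70 ± 0.07 in 13 of 13 dogs, while IL2RB, which serves interleukin-2 and interleukin-15, was higher by 0.89 ± 0.12 in 12 of 13 and lost its call without the 3 exclusions. IL23R, the interleukin-23 receptor chain that marks Th17 cells, was higher by 2.52 ± 0.46 in 11 of 13 dogs, on 34 UMIs against 33, and lost its call when cells were matched on total UMIs. Of 15 such receptors tested, 2 were higher and 2 lower.

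Genes of cytotoxic lymphocytes were higher in part. Of 17 tested, 4 were called, all higher, with a median of 0.42. KLRK1, which encodes the activating receptor NKG2D, ran from 1.48 to 233 CPM (median 36.1) against 0.759 to 66.4 (median 6.50) and was higher in 10 of 13 dogs (log2 difference 1.94 ± 0.24, edgeR adjusted p = 1.92e-09). CD96, a receptor for nectins on T and NK cells, rose by 1.52 ± 0.15 and KLRG1, a receptor of late effector cells, by 1.78 ± 0.23, each in 12 of 13 dogs. GZMK, a granzyme of memory T cells, ran from 5.92 to 446 CPM (median 56.9) against 6.98 to 176 (median 34.8), higher in 11 of 13 dogs (1.01 ± 0.15), and it lost its call when Scrublet's doublets were removed. GZMB, the granzyme of killer cells, did not pass (0.97 ± 0.30, edgeR adjusted p = 0.0204), and its sign turned without those doublets. That setting held 12 dogs and also lacked healthy dog 7, which fell to 24 cells and had the highest GZMK and GZMB. CCL5, a chemokine of effector cells, was called lower (-1.40 ± 0.19), although it was higher in 4 dogs and lower in 7, on 167 UMIs against 2630, and it lost its call with DESeq2, when cells were matched on total UMIs and without the 3 exclusions. Effector cytokines as a list gave 0 higher and 2 lower of 14 tested. IFNG had 2 UMIs with IL18R1 and 16 without in these 13 dogs, and the ratio of the gates' CPM, 1.22-fold higher without IL18R1, had a counting interval of 0.287 to 10.9. Such counting intervals, here and below, pool the UMIs of all dogs and leave out the spread between cells and between dogs.

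Cells with CD8A UMIs had been excluded, and the levels in a gate of CD8 T cells (3386 cells, at least 2 CD8A UMIs and no CD4) are set beside these genes. Summed NK and CD8 T cell markers lay between 29.8 and 612 CPM (median 112) in the IL18R1-gated cells, between 24.8 and 299 (median 45.8) without IL18R1 and between 1564 and 4870 in the CD8 gate. CCR9 stood at 43.1 CPM pooled over the IL18R1-gated cells and at 2.73 in the CD8 gate, PTPN13 at 129.1 and 57.1, and IL7R at 1568 and 350. For these genes the CD8 gate was the lower one. It was the higher one for IL12RB2 (674 against 155.6), KLRK1 (433 against 60.6), GZMK (272 against 94.0), ZBTB16 (200 against 73.9), TBX21 (52.0 against 5.80), CCL5 (2728 against 34.8) and NCR3 (508 against 14.1). The part of CD8 T cells with no CD8A UMI in the rises of the latter genes was not tested.

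Genes listed for Th17 cells, some of which (RORA, LTBP1 and NRG2 among them) the study picked on these samples, were higher in 5 of 12 tested (median 0.71) and lower in 0. RORA, a nuclear receptor of Th17 cells and of other memory T cells, ran from 257 to 672 CPM (median 455) with IL18R1 and from 123 to 363 (median 220) without, higher in 13 of 13 dogs (log2 difference 1.09 ± 0.07, edgeR adjusted p = 1.01e-20). LTBP1, a carrier of latent TGF-beta, rose by 1.28 ± 0.18 in 12 of 13 dogs and NRG2, a neuregulin, by 1.20 ± 0.18 in 9 of 13. Of activation and checkpoint genes 2 of 15 were higher: MAF by 1.05 ± 0.09 and ICOS, a costimulatory receptor, by 0.73 ± 0.07, both in 13 of 13 dogs, and ICOS lost its call without the 3 exclusions. Neither was called against the GATA3 gate set out below (MAF -0.10 ± 0.09, ICOS 0.08 ± 0.08) or the CCR6 gate (MAF -0.20 ± 0.11, ICOS -0.23 ± 0.11). Of Th2 genes 3 of 8 were higher and 1 lower (CMA1 and S100A2 of the former, and CCDC3, lost their calls without the 3 exclusions), of regulatory T cell genes 1 of 9 was higher, and of 15 interferon-stimulated genes 0 were called (median 0.01). Among markers of other cells, 1 of 6 for NK and CD8 T cells and 1 of 8 for cycling cells were higher, 2 of 11 for monocytes, 2 of 7 for B cells and 1 of 7 for gamma delta T cells were lower, and 0 of 4 for plasma cells and 0 of 4 for platelets were called. BLNK, a B cell adaptor, was the lowest of these (-3.39 ± 0.37, 9 UMIs against 573). Of the others, TPX2 for cycling cells and BANK1 for B cells lost their calls with DESeq2 and without the 3 exclusions, FAT1 for gamma delta T cells with DESeq2 and on matching, and FN1 for monocytes when doublets were removed, which left 12 dogs. Of the 9 tested genes that the study lists for Th1-like cells, 6 were higher with a median of 1.97, and of 7 that it lists for effector memory cells 3 were higher with a median of 0.48. The study chose both lists on these samples, IL12RB2, CCR9, PTPN13 and PRUNE2 among the former, so their direction is not independent evidence.

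Several of the genes that rose have no settled place in T helper biology. PRUNE2, a large gene known mainly from neurons, ran from 126 to 326 CPM (median 183) with IL18R1 and from 16.9 to 105 (median 31.4) without, so that every dog's IL18R1-gated cells lay above every dog's other cells (log2 difference 2.31 ± 0.10, edgeR adjusted p = 4.06e-30). EPAS1, which encodes the hypoxia-inducible factor HIF-2 alpha, did not overlap either, at 26.4 to 93.1 CPM (median 32.6) against 4.09 to 22.7 (median 11.4; 2.02 ± 0.18). PTPN13, a tyrosine phosphatase, ran from 32.6 to 231 CPM (median 125) against 8.12 to 103 (median 29.5), higher in 12 of 13 dogs (1.97 ± 0.15).

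**Figure D3:**
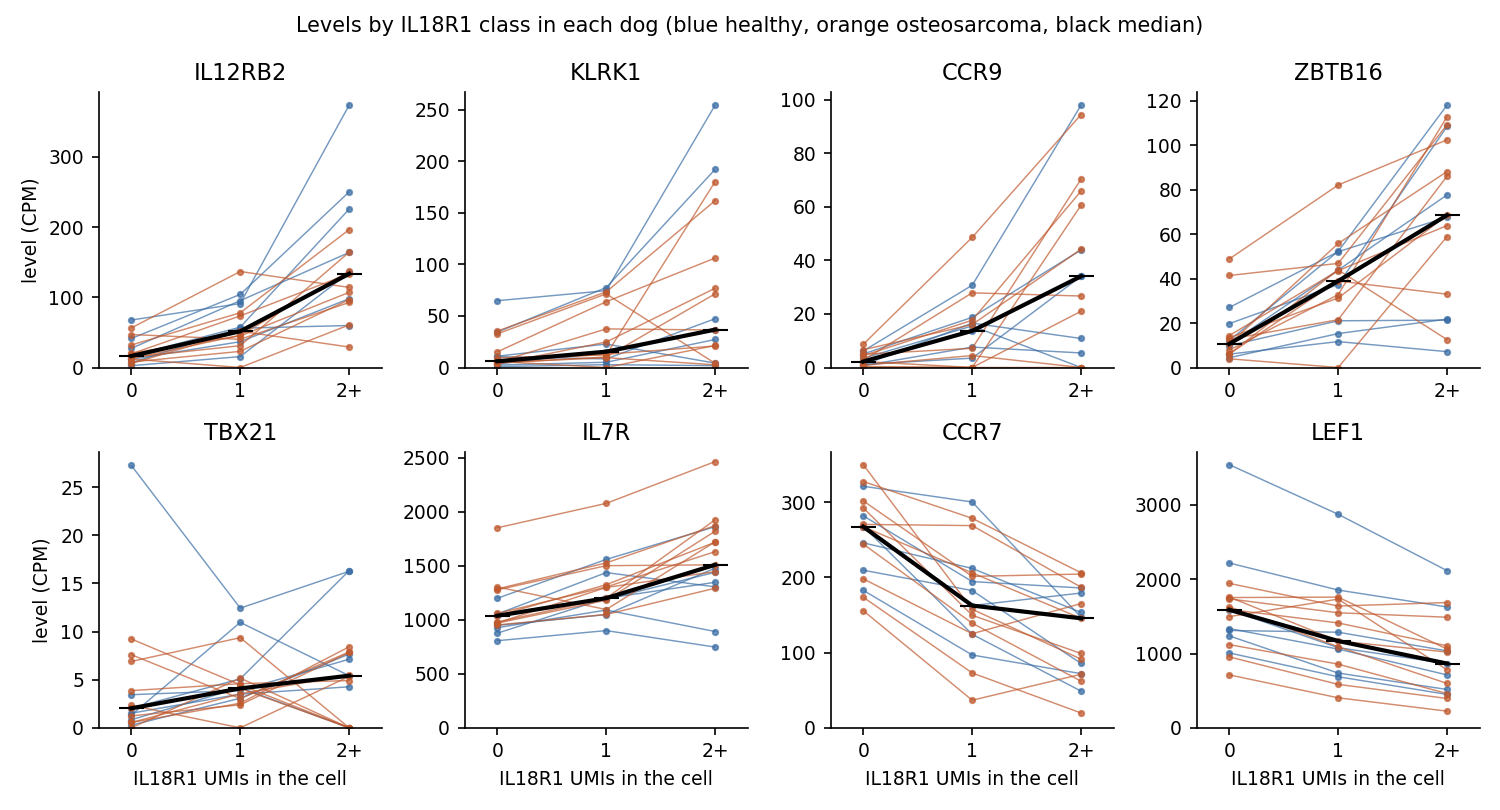
CPM of 8 genes (y axis, from 0) in gated CD4 T cells with 0, 1 or at least 2 IL18R1 UMIs (x axis). Each thin line is 1 of 17 dogs (blue healthy, orange OS) and the black line is the median; IL12RB2 rises from a median of 16.4 through 51.6 to 133.6 CPM and CCR7 falls from 267.3 through 162.5 to 145.6.

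The cells with 1 IL18R1 UMI lay between the other classes for many of these genes, in all 17 dogs' data and without normalisation beyond CPM. IL12RB2 had medians of 16.4, 51.6 and 133.6 CPM at 0, 1 and at least 2 IL18R1 UMIs and rose in that order in 13 of 17 dogs. The order held in 16 dogs for EPAS1, 15 for RORA, 14 each for IL18RAP, PRUNE2, RUNX2 and BHLHE40, and 13 each for ZBTB16 and IL7R. It was less regular for KLRK1 (10 dogs), CCR9 and TBX21 (8 each) and GZMK (6). CCR7 fell in the order in 13 dogs and LEF1 in 14. The cells with 1 UMI were also intermediate in depth, since the IL18R1-gated cells were deeper than they were in 17 of 17 dogs by a median factor of 1.14. CCR9 was at 0 in the IL18R1-gated cells of 4 of 17 dogs (healthy dog 3 and dogs 1, 8 and 9 with OS).

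Cell by cell, the 655 cells were not uniform. Of 5 genes (IL12RB2, CCR9, KLRK1, GZMK and TBX21), none had a UMI in 325 cells (49.6%), 1 gene did in 164, 2 did in 113 and 3 or more did in 53 (8.09%). IL12RB2 was found in 33.4% of the cells, against 5.37% of the cells without IL18R1 and 1.27% of B cells, whose median depth was 4938 UMIs. After thinning to 3000 UMIs these shares were 21.9%, 3.50% and 0.774%. Without thinning, CCR9 was found in 17.7% against 1.22% and 3.66%. CCR7 was found in 40.0% and LEF1 in 72.1% of the IL18R1-gated cells, against 63.2% and 88.9% of those without IL18R1. In myeloid cells, with a median depth of 4786 UMIs over the dogs, these shares were 0.58% and 1.53%. KLRK1 and GZMK went together: 51 of the 81 cells with KLRK1 also had GZMK (63.0%), against 12.0% of the other cells. Healthy dog 7 had the highest level of both genes, and the part of differences between dogs in this overlap was not tested. CCR9 and GZMK did not: GZMK was found in 19.0% of the cells with CCR9 and in 18.2% of those without. TBX21 was found in 12 of the 116 cells with CCR9 (10.3%) and in 2.41% of the others, and the cells with CCR9 were deeper, at a median of 7708 UMIs against 6792. IL12RB2 and CCR9 shared 69 cells (31.5% of the IL12RB2 cells, against 10.8% of the rest), but cells with IL12RB2 were also deeper, at a median of 7683 UMIs against 6629. These shares are over cells of 17 dogs, which are not replicates, and were not tested.

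The spread between dogs was uneven across genes. Over the 13 dogs and 3120 genes with a mean of at least 50 CPM in the IL18R1-gated cells, the median coefficient of variation was 0.260. The 6 largest among genes with a symbol were those of LYZ (1.73), RPL31 (1.29), KLRK1 (1.19), GZMK (1.18), DPYD (1.17) and ZEB2 (1.14). Healthy dog 7 had the highest KLRK1 (244 TMM-normalised CPM), GZMK (467) and ZEB2 (254), and it was also the highest dog for these 3 genes in the cells without IL18R1 (64.8, 171.9 and 241.5 plain CPM). Dog 1 with OS led for RPL31, a ribosomal protein gene, in both gates (372 normalised and 519 plain CPM). For these 4 genes the leading dog was the same in both gates. For LYZ and DPYD it was not, with healthy dog 6 highest in the IL18R1-gated cells and dog 5 with OS in the cells without IL18R1.

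A second comparison set the IL18R1-gated cells against 1277 CD4 T cells gated on GATA3 (at least 2 UMIs of GATA3, none of IL18R1, CCR6 or FOXP3), a Th2-like gate, in 13 dogs. Of 11016 genes tested, 87 were higher in the IL18R1-gated cells (0.79%) and 138 lower (1.25%), with a median of -0.04 over all genes. DESeq2 called 64 higher and 51 lower. Depth was closer here, with the IL18R1-gated cells deeper in 13 of 17 dogs by a median factor of 1.07. The GATA3 gate also carried little of the interleukin-12 receptor chain. IL12RB2 ran from 28.9 to 356 CPM (median 131) in the IL18R1-gated cells and from 1.48 to 101 (median 30.5) in the GATA3 gate, higher in 13 of 13 dogs (log2 difference 2.23 ± 0.17, edgeR adjusted p = 5.66e-19). CCR9 ran from 0 to 100 CPM (median 35.2) against 0 to 18.1 (median 2.97), higher in 11 of 13 (2.79 ± 0.26). PRUNE2 again did not overlap between the gates (2.09 ± 0.12). IL18RAP was higher by 0.86 ± 0.17, ZBTB16 by 1.12 ± 0.16, BHLHE40 by 1.15 ± 0.16 and IL7R by 0.66 ± 0.06, and IL18RAP lost its call when cells were matched on total UMIs, which left 12 dogs. TBX21 did not pass (0.91 ± 0.54, edgeR adjusted p = 0.446, 24 UMIs against 20). Of 14 tested genes of naive and resting T cells 1 was higher and 3 lower, with a median of -0.07. CCR7 (-0.06 ± 0.13, edgeR adjusted p = 0.925) and LEF1 (-0.20 ± 0.08, edgeR adjusted p = 0.166) did not pass.

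Of cytotoxic genes 8 of 16 tested were higher and 0 lower, with a median of 1.46, and of NK and CD8 T cell markers 3 of 5 were higher, with a median of 2.16. GZMA had 2 UMIs in the GATA3 gate and met the minimum of 10 counts through the IL18R1-gated cells alone. GZMA, KLRB1, KLRD1 and NCR3 lost their calls when cells were matched on total UMIs and when cells with 3 or more UMIs of other lineages' markers were removed, and GZMA also with DESeq2. Matching left 12 dogs (4 healthy) and the removal 11 (4 healthy, 7 with OS), so cells and dogs changed together. GZMK ran from 6.14 to 464 CPM (median 58.7) against 0 to 92.1 (median 14.8), higher in 12 of 13 dogs (log2 difference 1.74 ± 0.19), and KLRK1 was higher by 2.10 ± 0.25 in 11. GZMB had the largest rise of the genes with a symbol and at least 20 CPM on average over both gates (3.32 ± 0.39, 144 UMIs against 21, higher in 9 of 13 dogs). It met this limit only through the IL18R1-gated cells (means of 41.5 and 2.92 CPM), so its rank was partly set by the limit. In the IL18R1-gated cells 28.6% of its UMIs came from 1 cell and 68.7% from 5, and DESeq2 did not call it. PLCB1 (1.80 ± 0.17), MYBL1 (1.64 ± 0.21), ATRNL1 (1.65 ± 0.21) and FREM1 (1.58 ± 0.23) were the others among the 10 largest by that limit not yet named, the latter pair higher in 13 of 13 dogs. On the other side stood 5 of 9 tested Th2 genes (median -0.87), with 1, PPEF1, higher, and 4 of 9 regulatory T cell genes (median -1.05), from lists that again hold genes the study picked on these samples, such as ITGA2, LGALS3 and IKZF2. ITGA2, a collagen receptor chain, ran from 0 to 18.9 CPM (median 4.13) against 8.72 to 162 (median 54.9), lower in 13 of 13 dogs (-3.09 ± 0.25). ITGB1, its partner chain, ran from 73.3 to 385 CPM (median 129) against 348 to 740 (median 503), lower in 13 of 13 (-1.70 ± 0.10). IKZF2, which encodes Helios (-1.65 ± 0.12), LGALS3, which encodes galectin 3 (-1.65 ± 0.11), S100A5 (-1.58 ± 0.08) and ADIRF (-1.48 ± 0.12) were also lower in 13 of 13, and PSD3 in 12 (-1.83 ± 0.21). CTLA4, an inhibitory receptor, was lower by -0.87 ± 0.11, IL2RA, the high-affinity chain of the interleukin-2 receptor, by -1.46 ± 0.27, TNFRSF18 by -1.53 ± 0.32 and the cycling gene MKI67 by -1.47 ± 0.35, each in 12 of 13 dogs. IL2RA lost its call when cells were matched on total UMIs, and MKI67 with DESeq2, with edgeR's filter on low counts and with at least 10 cells per dog. Both lost it when 1 GATA3 UMI sufficed for the gate, as did IL7R and CCR4, and CCR4 lost it with DESeq2 and on matching too. The skin homing receptors CCR10 and CCR4 had 2 and 1 UMIs in the IL18R1-gated cells and 109 and 28 in the GATA3 gate, ratios of 32.6 (counting interval 8.81 to 272.5) and 16.7 (2.77 to 684.7) in favour of the GATA3 gate. Markers of other cells moved with these groups: 3 of 8 for gamma delta T cells (CDH4, FAT1 and TOX2, median -1.91), 3 of 8 for cycling cells, 2 of 10 for monocytes and neutrophils (LYZ and S100A8) and 1 of 7 for B cells (BLNK) were lower in the IL18R1-gated cells. S100A8 was high in every T cell gate. LYZ and BLNK lost their calls with DESeq2, with at least 10 cells per dog, on matching and when cells with other lineages' markers were removed. The summed gamma delta T cell markers lay between 29.1 and 88.7 plain CPM (median 55.0, RHEX at 0) in the IL18R1-gated cells and between 53.7 and 185.3 (median 86.8) in the GATA3 gate, and GATA3 is itself among the genes that the study lists for gamma delta T cells. CDH4, FAT1 and TOX2 lost their calls with DESeq2, and CDH4 also when cells were matched on total UMIs. The part of these markers in the Th2 and regulatory T cell differences was not tested.

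**Figure D4:**
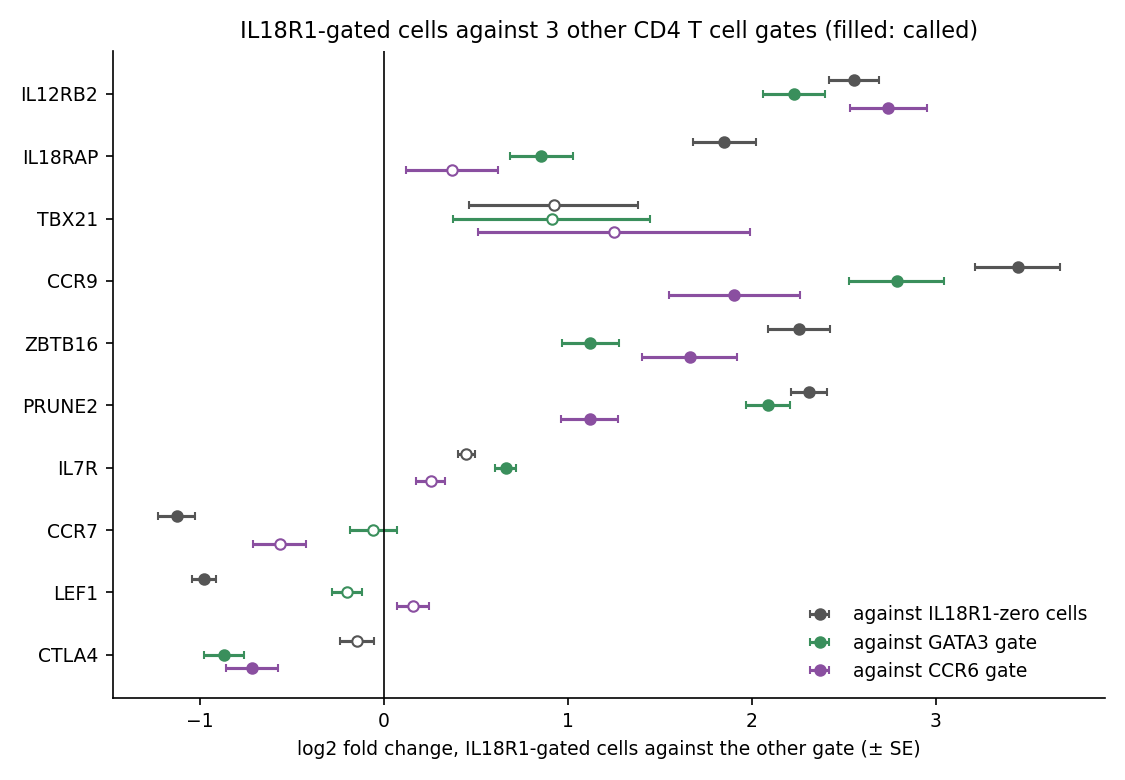
Log2 fold change ± SE (x axis) of 10 genes in the IL18R1-gated cells against CD4 T cells with no IL18R1 (grey, 13 dogs), against the GATA3 gate (green, 13 dogs) and against the CCR6 gate (purple, 14 dogs). Filled points were called; IL12RB2 is filled at 2.56, 2.23 and 2.74, and TBX21 is open at 0.92, 0.91 and 1.25.

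Next came 244 CD4 T cells gated on CCR6 (at least 1 UMI, with no IL18R1, GATA3 or FOXP3), a Th17-like gate. At most 27 such cells came from a dog, so 14 dogs (7 healthy, 7 with OS) with at least 10 cells in both gates were used. Of 10036 genes tested, 98 were higher in the IL18R1-gated cells (0.976%) and 23 lower (0.229%), with a median of 0.09. DESeq2 called 23 higher and 12 lower and lost CCR9, ZEB2, AUTS2, LYZ, RUNX2, NPAS2, NOL4 and ANK2, and matching on total UMIs left 34 and 10 in 10 dogs. IL12RB2 ran from 59.1 to 362 CPM (median 133) against 0 to 135 (median 7.66), higher in 14 of 14 dogs (log2 difference 2.74 ± 0.21, edgeR adjusted p = 1.08e-35). Cytotoxic genes were higher in 8 of 15 tested, with a median of 2.49. GZMK, KLRK1, GZMB, KLRB1, KLRD1, NCR3 and GZMA among them had at most 4 UMIs each in the CCR6 gate. They met the minimum of 10 counts through the IL18R1-gated cells alone, so this count and median were partly set by that minimum. Of these 8, GZMB, KLRB1, KLRD1 and NCR3 lost their calls both with DESeq2 and on matching, and GZMA with edgeR's filter on low counts and with RLE in place of TMM scaling factors. GZMK had 425 UMIs in the IL18R1-gated cells and 1 in the CCR6 gate, a ratio of 157 (counting interval 28.0 to 6217), and KLRK1 had 284 and 1, a ratio of 104.9 (18.7 to 4159). ZBTB16 (1.66 ± 0.26) was higher in 13 of 14 dogs, MYBL1 (1.75 ± 0.28) in 14, SNTB1 (2.28 ± 0.26) in 13 and CCR9 (1.91 ± 0.36) in 12. UBE2E3 (2.19 ± 0.32), ZEB2 (1.89 ± 0.28), AUTS2 (1.74 ± 0.30) and RUNX2 (0.70 ± 0.14) were called but lost the call on matching. LYZ was called higher (2.48 ± 0.23), with 491 of its 952 UMIs in 1 cell, and it too lost the call on matching. Among markers of other cells 2 of 9 for monocytes and neutrophils (LYZ and BPI) and 3 of 5 for NK and CD8 T cells were higher than in the CCR6 gate, and 0 were lower. BPI and the 3 NK and CD8 T cell markers (GZMB, KLRD1 and NCR3) lost their calls with DESeq2 and on matching. These genes too met the minimum of 10 counts through the IL18R1-gated cells alone.

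IL18RAP did not separate the IL18R1-gated cells from the CCR6 gate: it ran from 21.5 to 84.0 CPM (median 43.5) against 9.40 to 80.7 (median 35.1), higher in 9 of 14 dogs (log2 difference 0.37 ± 0.25, edgeR adjusted p = 0.737). TBX21 did not pass either (1.25 ± 0.74, edgeR adjusted p = 0.629, 28 UMIs against 4). Of 14 tested genes of naive and resting T cells 3 were higher (ZNF536, COL6A5 and RGS10) and 0 lower, with a median of 0.21. All 3 lost their calls with DESeq2 and on matching, and ZNF536 and COL6A5 had 6 and 5 UMIs in the CCR6 gate. LEF1 (0.16 ± 0.09) and CCR7 (-0.57 ± 0.14) were not called. Of Th17 genes 4 of 12 were lower and 1, KLRB1, higher (median -0.86), and NTRK2, ADAM12, NPAS2 and RGS17 are in that list as genes the study picked on these samples. NTRK2, a neurotrophin receptor, ran from 0 to 43.0 CPM (median 18.4) against 9.91 to 179 (median 53.9), lower in 14 of 14 dogs (-2.11 ± 0.27). ADAM12, a metalloprotease (-1.84 ± 0.24), NPAS2, a clock factor (-1.09 ± 0.29), and RGS17 (-0.98 ± 0.18) were lower in 10, 11 and 13 of 14 dogs, and SNX20 (-1.63 ± 0.31), DHX32 (-1.08 ± 0.21) and the integrin chain ITGB1 (-0.93 ± 0.12) in 13, 12 and 12. NPAS2, RGS17 and DHX32 lost the call on matching. NOL4 and ANK2 were called lower on 77 and 51 UMIs in the CCR6 gate, against 1 and 3, and rested mainly on dog 5 with OS, where NOL4 stood at 1048 CPM and was at 0 in the CCR6 gate of the other 13 dogs. ANK2 reached 667 CPM in 1 dog, with a median of 0.

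Whether OS changed the IL18R1-gated cells themselves was asked in the 13 dogs with at least 25 of them, 5 healthy (dogs 1, 2, 4, 6 and 7) and 8 with OS. Of 9641 genes tested, 0 were called (0%), edgeR gave 562 with an unadjusted p below 0.05, and DESeq2 called 0 with 339 at that level. For the 3761 genes with more than 50 CPM the median SE of the log2 difference was 0.225. The genes that define the cells did not pass. IL12RB2 stood at 168, 192, 255, 102 and 358 CPM in the healthy dogs and ran from 29.5 to 221 (median 125) in the dogs with OS (log2 difference -0.73 ± 0.28, edgeR adjusted p = 0.797), so that 1 of 8 dogs with OS lay above the healthy median. IL18RAP differed by -0.48 ± 0.26 (edgeR adjusted p = 0.874) and CCR9 by -0.21 ± 0.49 (0.970). TBX21, with 12 UMIs in each group, differed by -0.20 ± 0.70 (edgeR adjusted p = 0.980). The settings in which its sign turned all lacked healthy dog 7. The medians of the 22 gene lists lay between -0.24 and 0.65, except those of monocyte markers (-1.08), platelet markers (1.04) and cycling markers (3.09), and that of all genes was -0.004. All 12 tested interferon-stimulated genes lay above 0, with a median of 0.42 and 0 called.

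**Figure D5:**
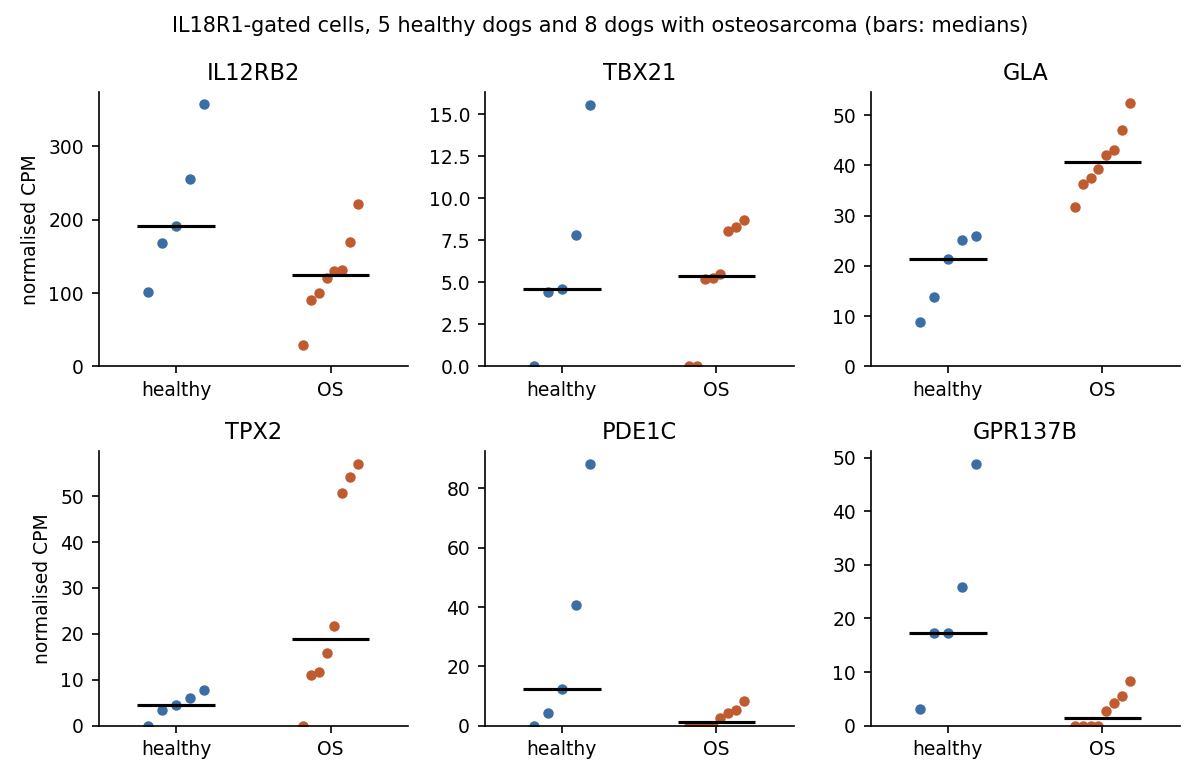
TMM-normalised CPM (y axis, from 0) of 6 genes in the IL18R1-gated cells of 5 healthy dogs (blue) and 8 dogs with OS (orange), with medians as bars. GLA, picked for its small p, ran from 8.86 to 25.9 CPM in healthy dogs and from 31.7 to 52.4 in dogs with OS, and no gene of the 6 was called.

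Among genes with a symbol, those with the smallest p in each direction were these. GLA, the lysosomal enzyme alpha-galactosidase A, stood at 25.1, 21.5, 13.8, 8.86 and 25.9 CPM in the healthy dogs and ran from 31.7 to 52.4 (median 40.7) in the dogs with OS (log2 difference 1.04 ± 0.29), though 0% of all genes were called and its edgeR adjusted p was 0.797. GLA was named for its small p, so the gap between the ranges was partly set by that choice. The other 4 higher in OS were the cell cycle genes NCAPG, TPX2 and CENPF and the RNA-binding protein gene IGF2BP3. NCAPG had 0 UMIs in healthy dogs and 18 in OS, from 6 of 8 dogs. TPX2 differed by 2.20 ± 0.64 and IGF2BP3 by 2.79 ± 0.85, and CENPF (4.48 ± 1.34) was at 0 in 5 of the 8 dogs with OS. Of the TOP2A UMIs of all 655 cells 51.0% were in 1 cell, and of those of MKI67 92.3% were in 5. TPX2 was spread more widely, over 34 cells of 14 dogs, with 15.9% of its UMIs in 1 cell and 50.7% in 5. Lower in OS were PDE1C, a phosphodiesterase, at 40.8, 12.3, 0, 4.43 and 88.1 CPM in healthy dogs against 0 to 8.28 (median 1.32; -3.02 ± 0.74), and GPR137B, a lysosomal membrane protein, at 17.2, 3.07, 17.3, 48.7 and 25.9 against 0 to 8.32 (median 1.34; -2.76 ± 0.69). FGF10, a fibroblast growth factor, had 23 UMIs in healthy dogs and 1 in OS (-3.65 ± 0.95), while EPB41L3 and COLGALT1 had 11 and 0 each. NCAPG, EPB41L3 and COLGALT1 met the minimum of 10 counts through the higher group alone, so a large difference followed from their entry. For each of these 10 genes the edgeR adjusted p was 0.797.

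The smallest p of all belonged to a gene with an identifier and no symbol, ENSCAFG00000005494, named here after its values were seen (log2 difference 5.19 ± 0.93, edgeR adjusted p = 0.0459, above the threshold of 0.01). In plain CPM the IL18R1-gated cells of dogs 4, 6, 7, 9 and 10 with OS stood at 363, 412, 192, 238 and 236, and those of healthy dog 5 at 190, and those of the other 11 dogs between 0 and 13.8. Healthy dog 5 had too few cells to enter the test. The cells without IL18R1 split the same dogs, with 204 CPM in healthy dog 5, 254 to 474 in the 5 dogs with OS and at most 10.7 in the rest. With at least 10 cells per dog the log2 difference was 2.83 and the edgeR adjusted p 0.821. That setting lets in healthy dogs 3 and 5 and dogs 3 and 8 with OS, all of which but healthy dog 5 stood at 0.

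A test of whether the difference between dogs with OS and healthy dogs was itself different in the IL18R1-gated cells and in those without IL18R1 called 4 of 12451 genes (0.0321%), and 588 had an unadjusted p below 0.05. LYZ had a difference of differences of -2.47 ± 0.20 (edgeR adjusted p = 1.30e-30), ARHGAP45 of -1.37 ± 0.20, the gene ENSCAFG00000032615 of -0.67 ± 0.14 and TOP2A, a DNA topoisomerase of cycling cells, of 4.43 ± 0.93. DESeq2 called none of the 12451 (231 at an unadjusted p below 0.05), and edgeR called none of the 8300 genes left by its own filter on low counts.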

How the data were processed

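Single-cell RNA of peripheral blood mononuclear cells was measured in 7 healthy dogs and 10 dogs with OS on the 10x Genomics 3' platform. The files deposited by the authors hold raw UMI counts per gene and barcode, 1 matrix per dog, made with Cell Ranger 7.0.0 against CanFam3.1 per the submitters' processing notes, which also name Seurat. Whether the deposited counts include intronic reads is not given in the sources used here. Paralogs and overlapping genes that share reads are uncertain at this level.

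Barcodes with 200 to 4500 genes, 500 to 20000 UMIs and under 10% mitochondrial UMIs were kept (84361 of 93013). Doublets were kept in the main results, and Scrublet (scanpy 1.11.5) was run as an alternative. Counts were summed per dog and gate and tested with edgeR 4.0.16 (quasi-likelihood, TMM, R 4.3.3) over all genes with at least 10 counts, the 9 gate genes left out, in dogs with at least 25 cells per gate, with Benjamini-Hochberg adjustment and dog as a block between gates. The CCR6 gate used at least 10 cells, because too few dogs reached 25, which departs from the plan. The SE was taken as the absolute log2 fold change divided by the square root of the F statistic and is approximate. Shares were compared by exact two-sided Wilcoxon tests (scipy 1.17.1). Scripts were tested on simulated data. Named genes were TBX21, the defining genes, up to 4 called genes per list with the largest change, the 10 highest and 8 lowest called genes with a symbol and a mean of at least 20 CPM, the 5 smallest p in each direction for OS, the 3 smallest p of the interaction and the 6 most variable genes. The fourth interaction gene and ENSCAFG00000005494 were named after their values were seen. The cells and gene lists were chosen with earlier results of these data known. Alternatives were DESeq2 1.42.0, other size factors and filters, other IL18R1 and GATA3 thresholds, matched depth, thinning, removed doublets, a replicate block and leaving out each dog. Some listed genes were not analysed here, and some results that belong to the rule are not reported here.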

Additional observations from a re-analysis of the deposited data

Results flagged for a closer look

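The levels here are TMM-normalised CPM in the IL18R1-gated cells. In 4 of 32 groups of dogs tested, the highest dog lay apart from the rest of its group by Dixon's criterion, which chance alone meets in about 1 group in 20 for normally distributed values. That rate does not apply to CENPF, IGF2BP3 and FGF10, where every other dog of the group was at 0 and any single dog with a UMI meets the criterion. CENPF stood at 10.4 CPM in healthy dog 7 and at 0 in the other 4 healthy dogs. IGF2BP3 stood at 3.13 CPM in healthy dog 1 and at 0 in the other 4. FGF10 stood at 2.64 CPM in dog 7 with OS, on its single UMI, and at 0 in the other 7 dogs with OS. ENSCAFG00000005494 stood at 14.1 CPM in healthy dog 1, against a healthy median of 0.

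For 4 genes the difference between OS and healthy dogs was itself different in the IL18R1-gated cells and in the cells without IL18R1, by edgeR's interaction test. LYZ had a difference of differences of -2.47 (edgeR adjusted p = 1.30e-30). Its medians were 49.5 CPM with and 151.7 without IL18R1 in healthy dogs, and 32.4 and 386 in dogs with OS, and the ranges of the dogs overlapped. ARHGAP45 had -1.37 (edgeR adjusted p = 4.05e-08), with medians of 39.6 and 138 CPM in healthy dogs and 50.2 and 221 in dogs with OS. ENSCAFG00000032615, which has no symbol in the files, had -0.67 (edgeR adjusted p = 0.00314). Its medians were 153 CPM with and 190 without IL18R1 in healthy dogs and 140.5 and 171 in dogs with OS, where a single dog, dog 1, reached 6531 and 14470. TOP2A had 4.43 (edgeR adjusted p = 0.00643), on 2 UMIs in the IL18R1-gated cells of healthy dogs and 46 in those of dogs with OS, of which 4 of 8 were at 0. None of these 4 calls was made by DESeq2.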

How the results depend on the processing

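The number of genes called against CD4 T cells without IL18R1 ran from 274 to 436 over all alternatives, and from 353 to 436 with 1 dog left out. Against the GATA3 gate DESeq2 called 115, and against the CCR6 gate DESeq2 called 35, edgeR's own filter left 60 and matched depth 44, with fewer genes or cells tested in the latter pair. The interaction gave 0 calls with DESeq2, 0 with edgeR's own filter and 11 with at least 10 cells per dog, where ENSCAFG00000032615 and TOP2A lost theirs. Between OS and healthy dogs, 1 gene, ENSCAFG00000005494, was called with at least 3 IL18R1 UMIs, on 5 dogs only (3 healthy, 2 with OS). With 1 dog left out of the main set 0 to 1 were called: the same gene, without dog 1, 2 or 5 with OS. The shift in the share of gated CD4 T cells was -0.191 percentage points with at least 1 IL18R1 UMI and ran from 0.0985 to 1.03 with 1 dog left out. That of all kept barcodes was -0.0944 as a difference in means, -0.137 with at least 1 and -0.00798 with at least 3 IL18R1 UMIs, and ran from -0.0280 to 0.112 with 1 dog left out, being -0.0280 without healthy dog 3 or 5 and -0.0183 without healthy dog 7. The cause of these moves was not tested. Between OS and healthy dogs TBX21 was 0.011 without Scrublet's doublets and 0.14 without cells with markers of other lineages (added after seeing the data). Healthy dog 7 had also dropped out of both settings, and dog 5 with OS out of the latter, so cells and dogs changed together. With 1 dog left out TBX21 ran from -0.469 to 0.150, the only value above 0 there being that without healthy dog 7. GZMB against cells without IL18R1 was -0.75 without Scrublet's doublets, where healthy dog 7, the highest for GZMB, had also dropped out. Of 1588 values for 113 results of a gene in a comparison (a gene counts once in each), 1517 kept direction and call, 55 lost the call, 11 gained one and 5 changed sign. This tally does not cover every gene named above, so more of their calls were lost than it holds. Over all genes followed, DESeq2 lost the calls of 6 of 49 against cells without IL18R1. It lost 17 of 51 against the GATA3 gate and 22 of 39 against the CCR6 gate.

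Replicate numbers did not pair the dogs: over 5 pairs the correlation of deviations ran from -0.0283 to 0.0539, and 0 dogs correlated best with their own number. With a replicate block 5 genes were called between OS and healthy dogs (4 higher, 1 lower), and CENPF turned to -2.69. A CCR6 threshold of 2 UMIs was not run, since 60 cells met it in 17 dogs. TBX21 and IFNG had few UMIs in the IL18R1-gated cells of every dog, and the part of depth in this was not tested. Between 14 and 77 cells per dog limit all comparisons of OS with healthy dogs.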
